A study of Homo sapiens with 15 samples.

Results

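The transcript levels of CD45, of 6 SRC family kinases and of 2 enzymes that hold these kinases in check were followed in K562 cells that had lost an HSP90 isoform or had become resistant to an HSP90 inhibitor. The 9 genes were PTPRC (CD45), SRC, LYN, LCK, FGR, FYN, YES1, CSK and PTPN6 (SHP-1), taken by symbol from 2 expression tables. The first table (knockout models) has rows for 7 of them among 17769 genes and none for LCK or FGR. The second table (resistance model) has rows for all 9 among 60510 genes. K562 is a BCR-ABL1+ chronic myeloid leukemia line. The knockout table holds 3 libraries each of untreated empty vector (EV) cells with unedited HSP90 genes, HSP90α-KO cells and HSP90β-KO cells, made by lentiviral delivery of Cas9 and a guide RNA and a sort on a fluorescent marker. The labels add monoclonal selection. The resistance table holds 3 libraries of wild-type K562 kept for a long period in the solvent DMSO (parental) and 3 of wild-type K562 kept in rising amounts of PU-H71, a purine-scaffold HSP90 inhibitor, until resistant clones grew (PUHr). Wild-type refers to the starting cells. The study reports that PUHr cells acquired further variants, among them a copy number gain over the gene of HSP90α and a missense variant in it. The study's methods name 1 clone per knockout for its proteome and secretome work. Neither they nor the labels say how many clones the RNA of a group comes from. In these libraries the effect of a knockout or of the drug and a property of a clone thus cannot be told apart. For CD45 protein, the study reports a low level in HSP90α-KO cells of another BCR-ABL1+ line too, restored there when HSP90α was expressed again. While the study calls its RNA-seq replicates independent, no source used here says whether they are separate cultures. The p-values therefore measure the spread between these libraries, which may be technical. In bulk RNA, less RNA per cell and fewer cells with the RNA cannot be told apart.

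CD45 is a receptor-type tyrosine phosphatase of the plasma membrane of blood cells. SRC family kinases are closed and inactive when a tyrosine near their carboxy-terminal end is phosphorylated. CSK adds that phosphate and CD45 removes it, so that CD45 can prime the kinases, and CD45 can also dephosphorylate the activating tyrosine in the kinase domain. SHP-1 is a cytosolic phosphatase that docks on inhibitory receptors and counteracts the kinases and their substrates. LCK and FYN are known from T cells, LYN and FGR from B and myeloid cells, and SRC and YES1 are expressed widely.

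The end of the coding sequence is shown for 5 of the kinases, because the tyrosine codon in it is the one on which CSK and CD45 act against each other. Each run goes 5′ to 3′ on the coding strand from 5 codons before the last tyrosine codon to the stop codon of the canonical GENCODE v44 transcript (GRCh38), with the tyrosine codon in capitals.
SRC: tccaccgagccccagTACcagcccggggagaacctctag
FYN: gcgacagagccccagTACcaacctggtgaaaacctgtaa
YES1: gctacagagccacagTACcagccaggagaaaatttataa
FGR: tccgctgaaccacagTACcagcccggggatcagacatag
LCK: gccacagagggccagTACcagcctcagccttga
They lie at chr20:37403341-37403379 (plus strand), chr6:111661739-111661777 (minus), chr18:724424-724462 (minus), chr1:27612914-27612952 (minus) and chr1:32285684-32285716 (plus), each within 1 exon. The tyrosine was codon 530 in SRC, 531 in FYN, 537 in YES1, 523 in FGR and 505 in LCK. It was followed by 6 further codons before the stop in the first 4 and by 4 in LCK. Over the first 33 bases FYN and YES1 shared 27 (81.8%), the most of any pair, and LCK and FGR shared 18 (54.5%), the fewest. These kinases are related in sequence, and how reads that fit more than 1 of them were counted is not given in the sources used here.

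Reads counted on genes ranged from 19594381 to 26216730 per library, so that 1 read was worth 0.0381 to 0.0518 CPM, the unit of reads scaled to library depth. The tables were normalized separately, so tests were made within a table. HSP90AA1, the gene of HSP90α, was at 88.0 to 92.6 CPM in the HSP90α-KO libraries against 683 to 716 CPM in EV, and HSP90AB1, the gene of HSP90β, was at 1889 to 1939 CPM in HSP90β-KO against 2782 to 2823 CPM in EV. In the resistance table HSP90AA1 was at 1553 to 1592 CPM in PUHr and 1696 to 1721 CPM in parental libraries. The study reports overexpressed HSP90α protein in PUHr cells, so HSP90AA1 mRNA does not serve as a check of the labels there. Of 10 erythroid markers of K562, 9 had more than 3 reads in each of the 15 libraries. T cell markers summed to 3.66 to 18.9 CPM per library and B cell markers to 2.13 to 7.18 CPM, while monocyte and granulocyte markers, led by ITGAM, summed to 95 to 129 CPM in the knockout libraries and 18.3 to 26.4 CPM in the parental and PUHr libraries. Of these lists the knockout table has rows for 3 of 7, 2 of 5 and 2 of 6 genes, and the resistance table for all. MPO and ELANE had 0 reads in all 6 libraries of the resistance table.

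A gene is said to have risen or fallen where its Benjamini-Hochberg adjusted p in limma was under 0.05 over all genes tested, and it is called changed where its log2 fold change was also above 1 or below -1. In HSP90α-KO against EV, 7 genes were tested, of which 5 rose, 1 fell and 3 were changed, where 27.5% of all 17039 genes tested rose, 26.6% fell and 10.3% were changed. In HSP90β-KO against EV, none rose, 1 fell and 0 were changed, against 17.2% of all genes that rose, 17.2% that fell and 4.48% that were changed. At an unadjusted p under 0.05 in limma, 2 genes (SRC and CSK) would have counted as higher in HSP90β-KO, and voom on recovered reads called 0 genes changed there. In HSP90α-KO against HSP90β-KO, 5 rose, 1 fell and 3 were changed, beside 30.1%, 29.8% and 12.7% of all genes. In PUHr against parental cells, 4 rose, 3 fell and 3 were changed of 7 tested, beside 25.6%, 25.8% and 10.1% of 16503 genes. Of these 3 changed genes, only PTPRC was still called changed under a stronger filter on low values or with 5 CPM added. The median log2 fold change of the 7 genes was 0.33, 0.03, 0.32 and 0.14 in these comparisons, against -0.01, 0.00, -0.01 and 0.00 over all genes tested. The group thus held both directions in HSP90α-KO and in PUHr, and PTPRC, SRC, LYN and PTPN6 went opposite ways in the knockout and the resistance model.

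**Figure D1:**
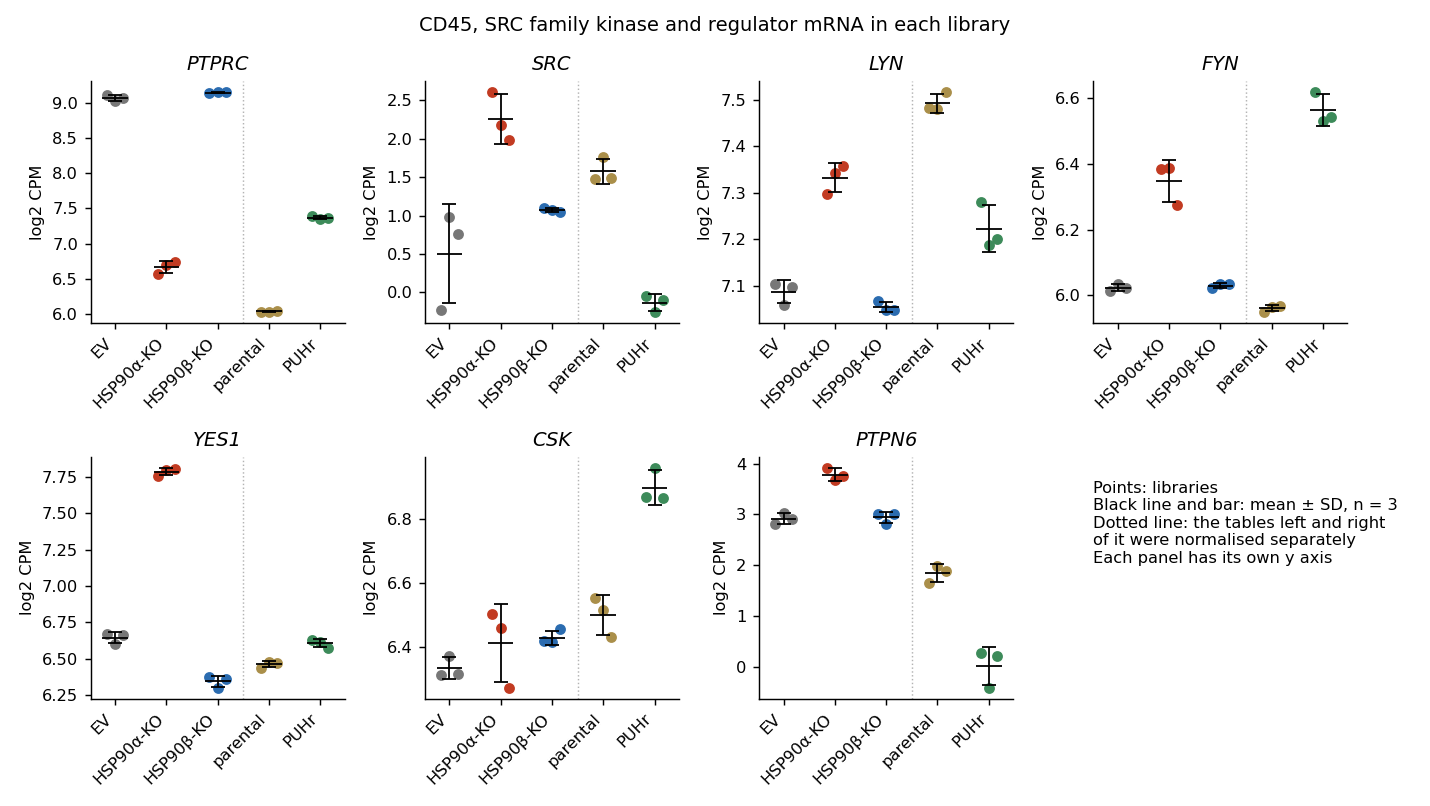
Log2 CPM of the 7 tested genes in each of the 15 libraries (points), with the mean and SD of each group (black, n = 3). PTPRC is low in HSP90α-KO and in parental cells, YES1 and PTPN6 are highest in HSP90α-KO, and SRC and PTPN6 are lowest in PUHr.

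PTPRC, the gene of CD45, fell in HSP90α-KO cells and rose in PUHr cells. It lies on chromosome 1 of GRCh38 from 198638457 to 198757476 on the plus strand (ENSG00000081237). The EV libraries held 554, 522 and 537 CPM, the HSP90β-KO libraries 560.5, 567 and 566 CPM, and the HSP90α-KO libraries 95.2, 104 and 106 CPM. Every HSP90α-KO library was thus far below each of the other 6 libraries. The mean fell from 538 ± 16.0 CPM in EV to 102 ± 5.94 CPM in HSP90α-KO (SD, n = 3), which is 0.190 of the EV level. The log2 fold change was -2.40 (SE 0.035, adjusted p = 6.86e-27 in limma), and against HSP90β-KO it was -2.47 (adjusted p = 2.90e-27 in limma). Summed T cell markers, 3 of 7 of which have a row, were also lowest in HSP90α-KO, at 3.66 to 4.56 CPM against 8.18 to 9.0 CPM in EV and 17.0 to 18.9 CPM in HSP90β-KO. Their part in the fall of PTPRC was not tested.

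In HSP90β-KO the PTPRC mean was 564 ± 3.35 CPM (SD, n = 3). Its 3 libraries lay above the 3 EV libraries, but the log2 fold change of 0.07 had a 95% confidence interval of -0.00 to 0.14 and an adjusted p of 0.12 in limma. That call depended on the spread estimate and on scaling. It passed the threshold in a fit of only these 6 libraries (adjusted p = 0.026), under quantile normalization (0.046), with voom on recovered reads (0.039) and without HSP90α-KO replicate 1 (0.047), and the adjusted p ranged from 0.026 to 0.34 over all alternatives. At most, then, the interval allows a rise of 0.14 on the log2 scale.

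In the resistance table the parental libraries held 65.6, 65.6 and 66.1 CPM of PTPRC and the PUHr libraries 168, 164 and 164 CPM. All 3 PUHr libraries exceeded all parental ones, and replicates lay close together. The mean rose from 65.8 ± 0.281 to 165 ± 2.07 CPM (SD, n = 3). This was a 2.51-fold rise, with a log2 fold change of 1.33 (SE 0.028, adjusted p = 4.53e-14 in limma). T cell markers summed to 8.11 to 8.99 CPM in PUHr and 11 to 11.2 CPM in parental cells. B cell markers summed to 2.13 to 2.18 CPM in PUHr and 3.52 to 4.03 CPM in parental cells, so that both lists were lower where PTPRC was higher. The other marker lists were lower in PUHr too. Erythroid markers, led by TFRC in both groups, were at 1961 to 2059 against 2705 to 2737 CPM. Monocyte and granulocyte markers were at 18.3 to 20.03 against 25.3 to 26.4 CPM. The part of these shifts in the PTPRC value was not tested.

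The starting level of CD45 mRNA differed between the control groups of the tables. EV held 8.18 times the PTPRC level of parental cells, while the median gene differed by -0.09 on the log2 scale. Only 36 (0.307%) of the 11726 genes whose mean log2 CPM reached 1 in both tables lay further apart. Among the other genes of the group, PTPN6 was 2.12 times higher in EV and SRC 2.06 times higher in parental cells, and LYN, FYN, YES1 and CSK lay within 1.32-fold. HSP90AA1 was 2.43 times higher in parental cells. Marker sums differed as well, with erythroid markers at 867 to 877 CPM in EV and 2705 to 2737 CPM in parental cells, and monocyte and granulocyte markers at 126 to 129 and 25.3 to 26.4 CPM. The erythroid sums, led by TFRC in both groups, run over 9 genes in EV and 10 in parental cells. The monocyte and granulocyte sums run over 2 genes in EV and 6 in parental cells. These ratios cross tables that were normalized separately and were not tested. On the same untested footing, the PTPRC level of PUHr cells, 165 CPM, lay below the 538 CPM of EV cells and above the 102 CPM of HSP90α-KO cells.

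The 250 bases before the RefSeq start of PTPRC (GRCh38.p14, chr1:198638790-198639039, plus strand) are shown because this gene had the largest fall of the group in HSP90α-KO. The GENCODE locus given above starts upstream of this window, so the window precedes the RefSeq start and not the GENCODE start. They are rich in A and T, with 31.2% G or C.
PTPRC: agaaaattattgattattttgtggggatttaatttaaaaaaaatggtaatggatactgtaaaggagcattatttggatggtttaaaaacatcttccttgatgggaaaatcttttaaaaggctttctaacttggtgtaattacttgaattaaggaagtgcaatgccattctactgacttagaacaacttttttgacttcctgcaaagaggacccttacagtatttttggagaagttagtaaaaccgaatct
The motifs searched on both strands were GATAA (GATA factors), GAGGAA (PU.1 and related ETS factors) and GAANNTTC (a pair of heat shock element units, N being any base), none of which is contained in another. None of them was found in these 250 bases, which is why no base is in capitals. Among all 35116 promoter windows of that length in the table, 20.4% held the first, 23.6% the second and 5.78% the third. Promoters of 7 of the 9 genes were in the table, and only those of FGR (at 151 and 9 bases before the start) and CSK (at 115 bases before the start) held a motif, in both cases GAGGAA. A match in this window does not show that a factor binds, and the lack of one says only that these letters are not there.

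Genes next to PTPRC moved in both directions. The 10 nearest tested genes on each side whose mean log2 CPM reached 1 spanned 9.15 Mb, and in HSP90α-KO against EV the median of their log2 fold changes was 0.09, and among the 20 there were 9 that rose, 7 that fell and 2 that were changed, beside 27.5%, 26.6% and 10.3% of all genes tested. Only NAV1, 2.90 Mb downstream, was further from 0 than PTPRC, and it rose (log2 fold change 3.54). In PUHr against parental cells the median of the 20 neighbours was -0.08, with 3 that rose and 10 that fell, beside 25.6% and 25.8% of all genes tested. Only CSRP1, 2.87 Mb downstream, was further from 0 than PTPRC there, and it fell (log2 fold change -3.24), while NAV1 rose by 1.22. For a comparison of neighbourhoods, the 16 tested genes around YES1 had a median of -0.06 in HSP90α-KO with 1 changed, and the 20 around SRC and the 20 around PTPN6 had medians of 0.05 and -0.08 with none changed.

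**Figure D2:**
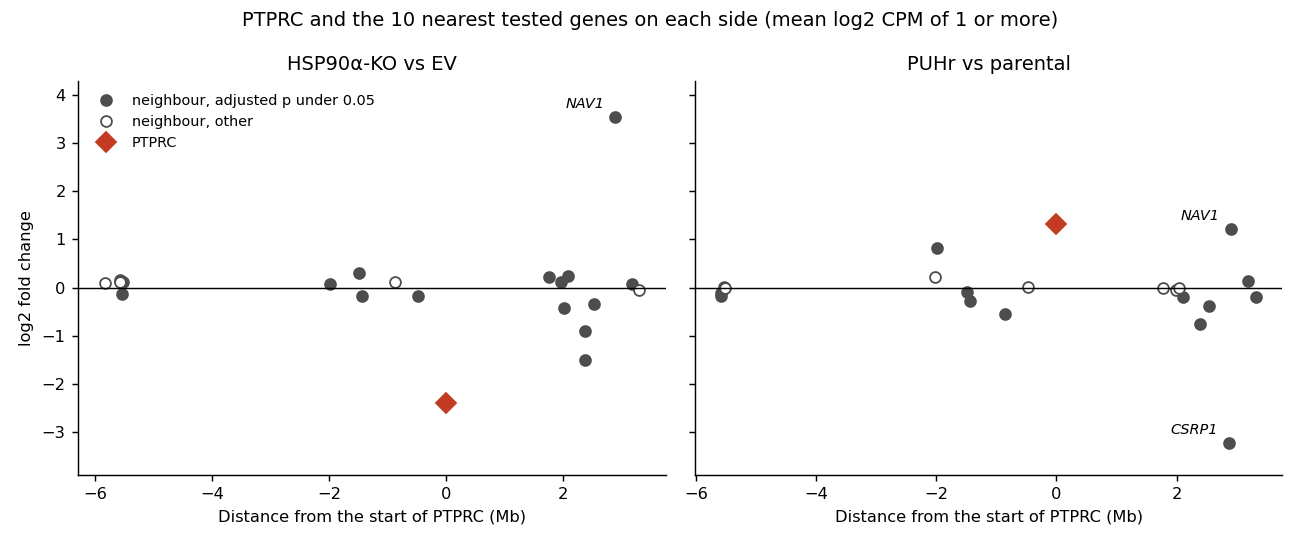
Log2 fold change of PTPRC (diamond) and of its 10 nearest tested genes on each side (circles, filled where the adjusted p is under 0.05) against the distance from the start of PTPRC in megabases, for HSP90α-KO against EV and PUHr against parental cells. Most neighbours lie near 0 (medians 0.09 and -0.08) while PTPRC lies at -2.40 and 1.33.

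The genes whose log2 CPM followed PTPRC most closely over the 9 libraries of the knockout table were RELN, RPN2, MALT1, SOX6 and ZFPM2, of 12342 genes compared, with Pearson's r from 0.9988 to 0.9993. These coefficients describe 9 points that fall into 2 levels, so any gene with a low level in HSP90α-KO alone scores high. RELN encodes the secreted glycoprotein reelin, RPN2 a subunit of the oligosaccharyltransferase, MALT1 a paracaspase of antigen receptor signalling, SOX6 a transcription factor of erythroid cells and ZFPM2 a cofactor of GATA factors. Their log2 fold changes in HSP90α-KO against EV were -2.98, -0.58, -1.43, -3.13 and -4.22, so likeness by r did not mean likeness in size. In PUHr against parental cells they were 1.48, 0.26, 0.06, -0.21 and 0.10, next to 1.33 for PTPRC. RELN was thus the one of the 5 whose values lay near those of PTPRC in both models.

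SRC, the founding member of the kinase family, was the least abundant of the tested genes and moved in the opposite direction to PTPRC in both models. It lies on the plus strand of chromosome 20 from 37344685 to 37406050. The EV libraries held 16, 39 and 42 reads of SRC, the HSP90β-KO libraries 43, 47 and 50, and the HSP90α-KO libraries 123, 86 and 75. All HSP90α-KO libraries exceeded the others, and EV replicate 1 was the lowest of the 9. The mean rose from 1.41 ± 0.582 CPM in EV to 4.77 ± 1.11 CPM in HSP90α-KO (SD, n = 3), with a log2 fold change of 1.76 (SE 0.22, adjusted p = 2.24e-07 in limma). The call as changed depended on the pseudocount: with 5 CPM added the value was 0.61, past the adjusted p but under the fold threshold. Without EV replicate 1 it was 1.39. The HSP90β-KO mean was 2.01 ± 0.0360 CPM, and its log2 fold change of 0.57 against EV missed the threshold (95% confidence interval 0.11 to 1.03, adjusted p = 0.051 in limma). Adjusted p-values for it ranged from 0.0081 to 0.45 over the alternatives and the lowest value came without EV replicate 2, so at 16 to 50 reads the call was not settled by these libraries. HSP90α-KO exceeded HSP90β-KO by 1.19 on the log2 scale (adjusted p = 5.64e-05 in limma). The call as changed in this comparison was lost with 1 or 5 CPM added.

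In the resistance table SRC fell. Parental libraries held 64, 79 and 58 reads and PUHr libraries 22, 18 and 19. No PUHr library reached the lowest parental one. The mean fell from 2.91 ± 0.347 to 0.827 ± 0.0674 CPM (SD, n = 3). The log2 fold change was -1.71 (SE 0.18, adjusted p = 1.21e-06 in limma). With 5 CPM added it was -0.44, past the adjusted p but not the fold threshold.

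YES1, a close relative of SRC, rose in HSP90α-KO and fell in HSP90β-KO. The gene lies on the minus strand of chromosome 18 from 721588 to 812546 and shares 1605 bases with a long noncoding RNA gene on the same strand, so reads there may belong to either. EV libraries held 102, 96.9 and 101 CPM, HSP90β-KO libraries 82.9, 78.9 and 82.1 CPM and HSP90α-KO libraries 216, 222 and 224 CPM. The 3 groups did not overlap, with HSP90α-KO highest and HSP90β-KO lowest. YES1 rose 2.21-fold in HSP90α-KO against EV (log2 fold change 1.14, SE 0.034, adjusted p = 4.72e-20 in limma) and fell in HSP90β-KO against EV (log2 fold change -0.30, SE 0.034, adjusted p = 9.37e-08 in limma). The direct comparison of the knockouts gave 1.44 (adjusted p = 1.68e-22 in limma). It was the only gene of the group that passed the test in HSP90β-KO. PUHr libraries held 99.0, 97.8 and 95.4 CPM against 86.7, 89.3 and 88.6 CPM in parental cells, a small rise of 0.14 on the log2 scale (adjusted p = 0.0011 in limma).

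FYN, the kinase of T cell and neuronal signalling, rose in both HSP90α-KO and PUHr by less than the fold threshold. It lies on the minus strand of chromosome 6 from 111660332 to 111873452. EV libraries held 64.5 to 65.4 CPM, HSP90β-KO libraries 64.9 to 65.4 CPM and HSP90α-KO libraries 77.3 to 83.6 CPM. EV and HSP90β-KO overlapped and HSP90α-KO lay above both. Its log2 fold change was 0.33 in HSP90α-KO (SE 0.039, adjusted p = 8.04e-08 in limma) and 0.01 in HSP90β-KO (95% confidence interval -0.07 to 0.09, adjusted p = 0.92 in limma). Parental libraries held 61.7 to 62.4 CPM and PUHr libraries 92.4 to 98.2 CPM, a log2 fold change of 0.60 (SE 0.034, adjusted p = 1.46e-09 in limma).

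LYN, which in myeloid cells acts both in activating and in inhibitory signals, moved with small amplitude. The gene lies on the plus strand of chromosome 8 from 55879835 to 56014169 and shares 2145 bases with a long noncoding RNA gene on the same strand. EV libraries held 133 to 138 CPM, HSP90β-KO libraries 132 to 134 CPM and HSP90α-KO libraries 157 to 164 CPM, with only the HSP90α-KO libraries apart. The log2 fold change was 0.25 in HSP90α-KO (SE 0.032, adjusted p = 3.07e-07 in limma) and -0.03 in HSP90β-KO (95% confidence interval -0.10 to 0.03, adjusted p = 0.48 in limma). In the resistance table LYN fell from 178 to 183 CPM in parental libraries to 146 to 155 CPM in PUHr, by 0.27 on the log2 scale (adjusted p = 2.47e-06 in limma).

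LCK and FGR, the kinases of T cells and of mature myeloid cells, were not detectable at this depth in the resistance table. LCK (chromosome 1, 32251244 to 32286165, plus strand) had 1, 0 and 0 reads in parental and 0, 1 and 0 reads in PUHr libraries. FGR (chromosome 1, 27612064 to 27635185, minus strand) had 0 reads in each parental library and 1, 0 and 1 in PUHr. A count of 0 allows up to 3 reads, or 0.120 to 0.141 CPM in these libraries, and this covers counting error only. Neither gene passed the filter on low values, and no fold change is given.

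**Figure D3:**
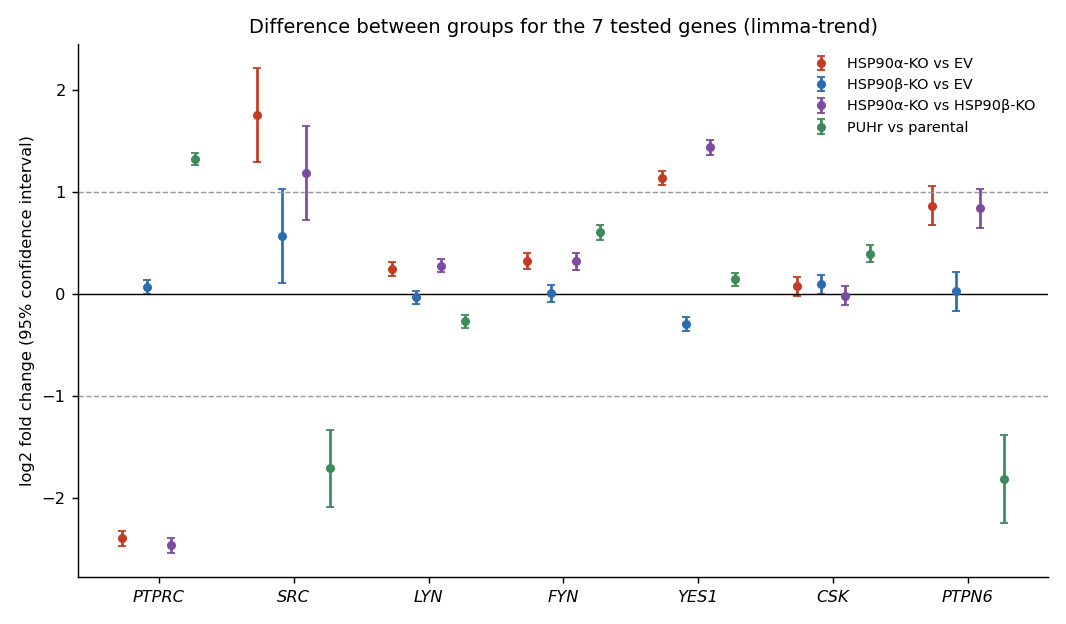
Log2 fold change with its 95% confidence interval for the 7 tested genes in 4 comparisons. PTPRC, SRC, LYN and PTPN6 lie on opposite sides of 0 in HSP90α-KO against EV and PUHr against parental cells, FYN and YES1 lie above 0 in both, and the HSP90β-KO values lie between -0.30 and 0.57.

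Of the opposing enzymes, CSK stayed near its control level in both knockouts and rose in PUHr. CSK lies on the plus strand of chromosome 15 from 74782080 to 74803197. EV libraries held 79.5, 82.8 and 79.6 CPM, HSP90α-KO libraries 90.6, 87.9 and 77.3 CPM and HSP90β-KO libraries 85.4, 85.3 and 87.6 CPM. HSP90α-KO replicate 3 lay below all EV libraries and replicates 1 and 2 lay above them. The log2 fold change in HSP90α-KO was 0.08 (95% confidence interval -0.02 to 0.17, adjusted p = 0.15 in limma), and it was 0.15 (adjusted p = 0.0022) without HSP90α-KO replicate 3. In HSP90β-KO it was 0.09 (95% confidence interval 0.00 to 0.19, adjusted p = 0.11 in limma), with adjusted p-values of 0.031 to 0.30 over the alternatives, the lowest in a fit of only these 6 libraries. Parental libraries held 93.8, 91.3 and 86.3 CPM of CSK and PUHr libraries 117, 124 and 116 CPM, and the groups did not overlap. This was a rise of 0.40 on the log2 scale (SE 0.037, adjusted p = 4.93e-07 in limma).

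PTPN6, the gene of SHP-1, had the lowest log2 fold change of the group in PUHr cells in the main fit, close to that of SRC (-1.71). With 1 library left out PTPN6 ranged from -1.94 to -1.60 and SRC from -1.76 to -1.62, so their order was not fixed. PTPN6 lies on the plus strand of chromosome 12 from 6946468 to 6961316. EV libraries held 145, 167 and 196 reads, HSP90β-KO libraries 167, 163 and 200 and HSP90α-KO libraries 308, 246 and 260, the last above all others. The mean rose from 7.47 ± 0.577 CPM in EV to 13.7 ± 1.19 CPM in HSP90α-KO (SD, n = 3), with a log2 fold change of 0.87 (SE 0.092, adjusted p = 9.40e-09 in limma), short of the fold threshold. In HSP90β-KO it was 0.03 (95% confidence interval -0.16 to 0.22, adjusted p = 0.86 in limma). Parental libraries held 72, 93 and 77 reads and PUHr libraries 28, 16 and 24. The mean fell from 3.52 ± 0.436 to 0.954 ± 0.248 CPM (SD, n = 3). The log2 fold change was -1.82 (SE 0.20, adjusted p = 2.78e-06 in limma), and -0.52 with 5 CPM added, which ends its call as changed. PTPRC and PTPN6, both phosphatases, thus moved in opposite directions within each model.

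Levels were compared between genes as CPM per kilobase of the canonical transcript, a scale that corrects for length only. In EV the order was PTPRC (100.4), CSK (29.4), LYN (23.1), YES1 (21.7), FYN (17.9), PTPN6 (3.46) and SRC (0.304), and no neighbours in it overlapped. In HSP90β-KO the order was the same except that FYN (18.0) came before YES1 (17.7), and these overlapped. In HSP90α-KO YES1 led (47.9), followed by CSK (31.1), LYN (27.4), FYN (22.5), PTPRC (19.0), PTPN6 (6.34) and SRC (1.03), again with no overlap of neighbours. CD45 mRNA thus went from the first to the fifth place of 7. In parental cells the order was CSK (33.0), LYN (30.7), YES1 (19.2), FYN (17.1), PTPRC (12.3), PTPN6 (1.63) and SRC (0.627), with LCK and FGR at or near 0. In PUHr it was CSK (43.4), PTPRC (30.9), FYN (26.1), LYN (25.4), YES1 (21.2), PTPN6 (0.441) and SRC (0.178), where FYN and LYN overlapped. Several ranks depend on the length used. With all exons of a gene merged, PTPRC was still in the first place in EV (34.8) and the fifth in HSP90α-KO (6.61), but CSK in EV (17.7) came after LYN (22.1) and YES1 (19.6). In PUHr the order then was CSK (26.2), LYN (24.2), YES1 (19.1), FYN (12.8) and PTPRC (10.7), so that PTPRC came after FYN there and not before it.

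**Figure D4:**
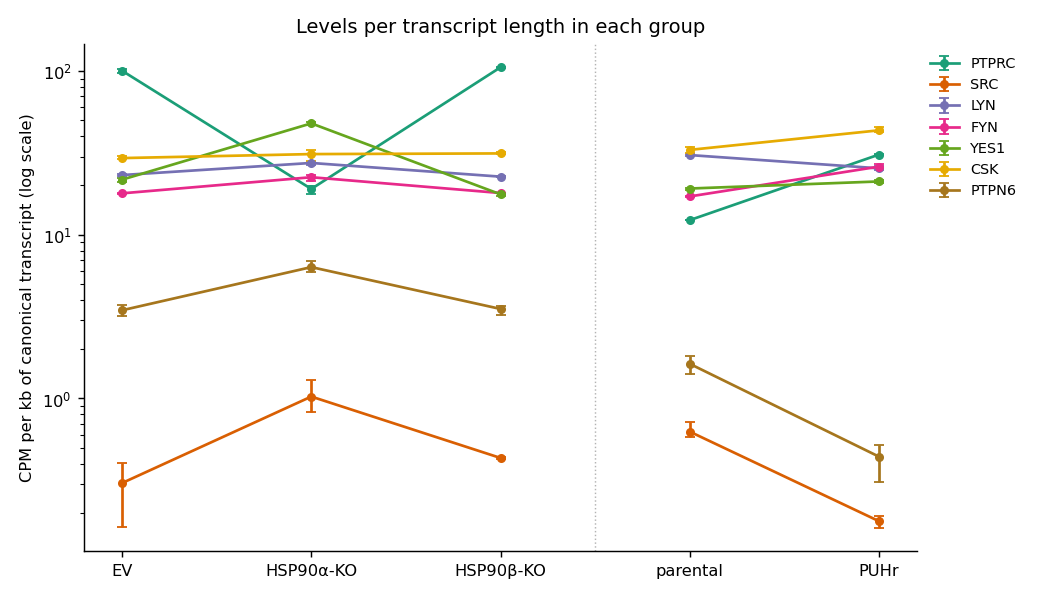
Level of each tested gene in CPM per kilobase of canonical transcript (log axis) in the 5 groups, as the mean with the lowest and highest of 3 libraries, with a dotted line between the separately normalized tables. PTPRC drops from first place in EV and HSP90β-KO (100.4 and 105) to 19.0 in HSP90α-KO, where YES1 leads at 47.9.

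The balance of the opposing enzymes moved with PTPRC. Per kilobase, the ratio of PTPRC to CSK mRNA was 3.42 ± 0.174 in EV, 3.36 ± 0.0476 in HSP90β-KO and 0.617 ± 0.0843 in HSP90α-KO, and it was 0.373 ± 0.0177 in parental cells and 0.712 ± 0.0319 in PUHr (SD, n = 3 each). Within the kinases, SRC, LYN, FYN and YES1 summed to 63.1 ± 0.766 CPM per kilobase in EV, 58.7 ± 0.527 in HSP90β-KO and 98.8 ± 0.951 in HSP90α-KO (SD, n = 3). YES1 made up 34.4% of that sum in EV, 30.1% in HSP90β-KO and 48.5% in HSP90α-KO, and SRC 0.484%, 0.738% and 1.04%. In parental and PUHr cells the sums were 67.6 ± 0.678 and 72.8 ± 2.06 CPM per kilobase (SD, n = 3), and FYN went from 25.4% to 35.8% and LYN from 45.4% to 34.9%. On merged exons the FYN share was 15.2% in parental cells and 22.7% in PUHr and the LYN share 52.8% and 43.1%, so that LYN stayed ahead of FYN, and the ratio of PTPRC to CSK was 1.97 in EV, 0.355 in HSP90α-KO, 0.214 in parental cells and 0.409 in PUHr. The directions within each table were the same on both lengths, and the sizes were not. These ratios and shares restate the values above on a common scale and were not tested. They concern mRNA and say nothing about protein or phosphorylation.

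FRK, a SRC-related kinase of epithelial cells, was tested in both tables at low read numbers. It had 5 to 12 reads in EV, 3 to 9 in HSP90β-KO and 25 to 30 in HSP90α-KO. FRK was changed in HSP90α-KO against EV (log2 fold change 1.66, adjusted p = 9.28e-05 in limma) and against HSP90β-KO (2.33, adjusted p = 6.04e-07), with a value of -0.67 in HSP90β-KO against EV (adjusted p = 0.11). In PUHr it fell by 0.83 on the log2 scale (adjusted p = 0.018 in limma), from 14 to 24 reads in parental libraries to 10 to 11. In the knockout table it passed the filter on low values with all 3 HSP90α-KO libraries, 2 EV libraries and no HSP90β-KO library, so it entered the test through the group where it is high.

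Of 7 genes for a CSK-like kinase and the adaptors that bind CSK or its partners, the knockout table allowed a test of 6. In HSP90α-KO against EV, 3 rose and 1 fell, beside 27.5% and 26.6% of all genes. In HSP90β-KO none passed the test in limma, with 3 at an unadjusted p under 0.05, beside 17.2% of all genes that rose and 17.2% that fell. PAG1, the membrane adaptor that brings CSK to the kinases, was changed in HSP90α-KO, at 5 to 7 reads against 18 to 31 in EV (log2 fold change -1.63, adjusted p = 4.90e-06 in limma) and 22 to 29 in HSP90β-KO (-1.59, adjusted p = 5.63e-06). It passed the filter on low values with 3 EV, 3 HSP90β-KO and 0 HSP90α-KO libraries. PAG1, the 1 counted above as fallen, could thus enter the test only as a lower gene in HSP90α-KO. DOK2, an inhibitory adaptor, was changed upward in HSP90α-KO (1.15, adjusted p = 0.0045 in limma), although its EV libraries, at 4 to 14 reads, overlapped the 13 to 18 reads of HSP90α-KO. In the knockout table DOK2 passed the filter with 3 HSP90α-KO, 3 HSP90β-KO and 1 EV library, so its entry rested on the groups where it is high. In the resistance table DOK2 passed the filter through the parental libraries alone, so that it could enter the test there only as a lower gene. Without it, 1 of 4 tested rose and 1 fell in PUHr against parental cells, beside 25.6% and 25.8% of all genes. DOK2 itself had 19 to 26 reads in parental libraries and 5 to 8 in PUHr, and no p-value is given for it.

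Of 8 other tyrosine phosphatases of the family tested in the knockout table, 2 rose and 3 fell in HSP90α-KO, beside 27.5% and 26.6% of all genes. In HSP90β-KO 1 rose and 5 fell, beside 17.2% each. None was changed in either knockout, beside 10.3% and 4.48% of all genes. In PUHr 1 of 8 tested rose and 5 fell, beside 25.6% and 25.8%, with a median log2 fold change of -0.31. PTPN22, which removes the activating phosphate in lymphocytes, was the 1 that was changed, beside 10.1% of all genes. It went from 52 to 64 reads in parental libraries to 23 to 27 in PUHr (log2 fold change -1.23, adjusted p = 4.18e-05 in limma). It also fell in both knockouts, by 0.63 on the log2 scale in HSP90α-KO (adjusted p = 1.19e-07 in limma) and by 0.64 in HSP90β-KO (adjusted p = 1.84e-07).

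Among 10 partners of CD45 and splicing factors of its mRNA, 7 passed the filter in each table. In HSP90α-KO 5 rose and 1 fell, beside 27.5% and 26.6% of all genes. In HSP90β-KO 2 rose and 2 fell, beside 17.2% each, and in PUHr 1 rose and 2 fell, beside 25.6% and 25.8%. CD22, a lectin receptor of B cells that binds CD45, had the same directions as PTPRC. It was changed downward in HSP90α-KO, at 14 to 17 reads against 31 to 56 in EV (log2 fold change -1.06, adjusted p = 0.00011 in limma), had 37 to 60 reads in HSP90β-KO (0.16, adjusted p = 0.60), and was changed upward in PUHr, at 98 to 108 reads against 20 to 29 in parental cells (1.92, adjusted p = 1.00e-07 in limma). LGALS1, the gene of galectin-1, a ligand of CD45 sugars, was at 82.5 CPM in HSP90α-KO and 31.9 CPM in EV (log2 fold change 1.37, adjusted p = 9.18e-19 in limma). It also rose in HSP90β-KO, to 44.7 CPM (0.49, adjusted p = 4.24e-09 in limma). LGALS3, the gene of galectin-3, was changed in HSP90β-KO, at 5 to 13 reads against 17 to 22 in EV (-1.13, adjusted p = 0.0027 in limma), and in HSP90α-KO against HSP90β-KO (1.71, adjusted p = 1.06e-05). It passed the filter with 3 EV, 3 HSP90α-KO and 1 HSP90β-KO library, so its entry rested on the groups where it is high. HNRNPLL, the splicing factor that favours the shortest CD45 isoform, rose by 0.49 on the log2 scale in HSP90α-KO (adjusted p = 8.50e-10 in limma) and fell by 0.19 in PUHr (adjusted p = 0.0018 in limma). It was not among the genes to be named by rule and was singled out after its values were seen, and CD45 isoforms cannot be read from gene-level values.

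Substrates and effectors of the kinases formed the largest list, 27 genes, of which 23 could be tested in the knockouts and 25 in PUHr. In HSP90α-KO against EV 10 rose and 6 fell, beside 27.5% and 26.6% of all genes, with a median log2 fold change of 0.15. CBLB, a ubiquitin ligase that restrains antigen receptor signals, was the 1 that was changed, beside 10.3% of all genes. It went from 8.41 ± 0.545 to 17.7 ± 0.559 CPM (SD, n = 3; log2 fold change 1.07, adjusted p = 2.79e-12 in limma). CBLB also rose in HSP90β-KO (0.47, adjusted p = 1.47e-05 in limma) and in PUHr (0.78, adjusted p = 4.79e-08 in limma). In HSP90β-KO against EV 2 rose and 4 fell, beside 17.2% each of all genes, with a median of -0.00. HCLS1, the blood cell form of cortactin, was the 1 that was changed there, beside 4.48% of all genes. It went from 15.3 ± 0.553 to 6.21 ± 0.586 CPM (SD, n = 3; -1.30, adjusted p = 3.81e-12 in limma). It also fell in HSP90α-KO, by 0.84 on the log2 scale (adjusted p = 6.38e-09 in limma). WAS, the actin regulator mutated in Wiskott-Aldrich syndrome, was at 86.2 CPM in HSP90α-KO and 37.4 CPM in HSP90β-KO, with 65.5 CPM in EV, and was changed in the direct comparison of the knockouts (1.20, adjusted p = 1.23e-17 in limma).

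In PUHr against parental cells, 10 of 25 tested genes of this list rose, 10 fell and 8 were changed, beside 25.6%, 25.8% and 10.1% of all genes. Of the changed genes 3 were higher and 5 lower, and the median log2 fold change of the list was -0.02. SYK, the kinase that SRC family members prime at immune receptors, went from 821 to 951 reads in parental libraries to 10 to 13 in PUHr. This is a log2 fold change of -6.11 (SE 0.11, adjusted p = 1.05e-14 in limma). PLCG2, the phospholipase downstream of SYK, went from 19.4 to 2.30 CPM (-3.03, adjusted p = 2.23e-12 in limma), and VAV1, the exchange factor of blood cells, from 37.4 to 4.79 CPM (-2.94, adjusted p = 1.99e-13 in limma). WAS went from 9.07 to 1.53 CPM (-2.50) and HCLS1 from 3.27 to 0.844 CPM (-1.86), both with non-overlapping libraries. VAV3, a relative of VAV1, was changed upward, from 7 to 13 reads to 46 to 58 (2.10, adjusted p = 2.09e-06 in limma). Not all parental libraries reached the filter on low values for VAV3, so its entry rested on PUHr, the group where it is high. In HSP90α-KO against EV the log2 fold changes of SYK, PLCG2 and VAV1 were -0.37, -0.60 and 0.56, so that the 3 genes lowest in PUHr did not share a direction there.

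Of 16 receptors with inhibitory motifs that dock SHP-1, 9 could be tested in the knockouts and 4 in PUHr. PECAM1 and FCGR2B passed the filter on low values through the HSP90α-KO libraries alone, so that they could enter the test there only as higher genes. Without them, 3 of 7 rose in HSP90α-KO against EV and none fell (0 also at an unadjusted p under 0.05 in limma), beside 27.5% and 26.6% of all genes. In HSP90α-KO against HSP90β-KO 5 of these 7 rose and none fell, beside 30.1% and 29.8%. SIRPA, the receptor for CD47, rose from 152 to 197 reads in EV to 573 to 676 in HSP90α-KO (2.01, adjusted p = 1.33e-18 in limma) and by 0.91 in HSP90β-KO (adjusted p = 5.62e-11 in limma). Against HSP90β-KO the log2 fold change of SIRPA in HSP90α-KO was 1.09. PECAM1, an adhesion receptor, had 17 to 24 reads in HSP90α-KO, 2 to 4 in EV and 1 to 4 in HSP90β-KO. FCGR2B, the inhibitory receptor for IgG, had 10 to 13, 0 to 8 and 0 to 4 reads. As the entry of PECAM1 and FCGR2B rested on the group where they are high, no fold change or p-value is given for them. In HSP90β-KO against EV 2 rose and 2 fell, beside 17.2% each, and in PUHr 1 of 4 rose and 2 fell, beside 25.6% and 25.8%. SIRPA was changed downward, from 198 to 230 reads to 30 to 38 (-2.64, adjusted p = 4.66e-10 in limma), and CEACAM1, an adhesion receptor, upward, from 2 to 11 reads to 17 to 20 (1.66, adjusted p = 0.0018 in limma). CEACAM1, the 1 counted as risen in PUHr, passed the filter with 3 PUHr libraries and 1 parental library. Its entry, and with it that count, rested on the group where it is high. SIRPA thus had the directions of PTPN6, whose product it binds, in both HSP90α-KO and PUHr.

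**Figure D5:**
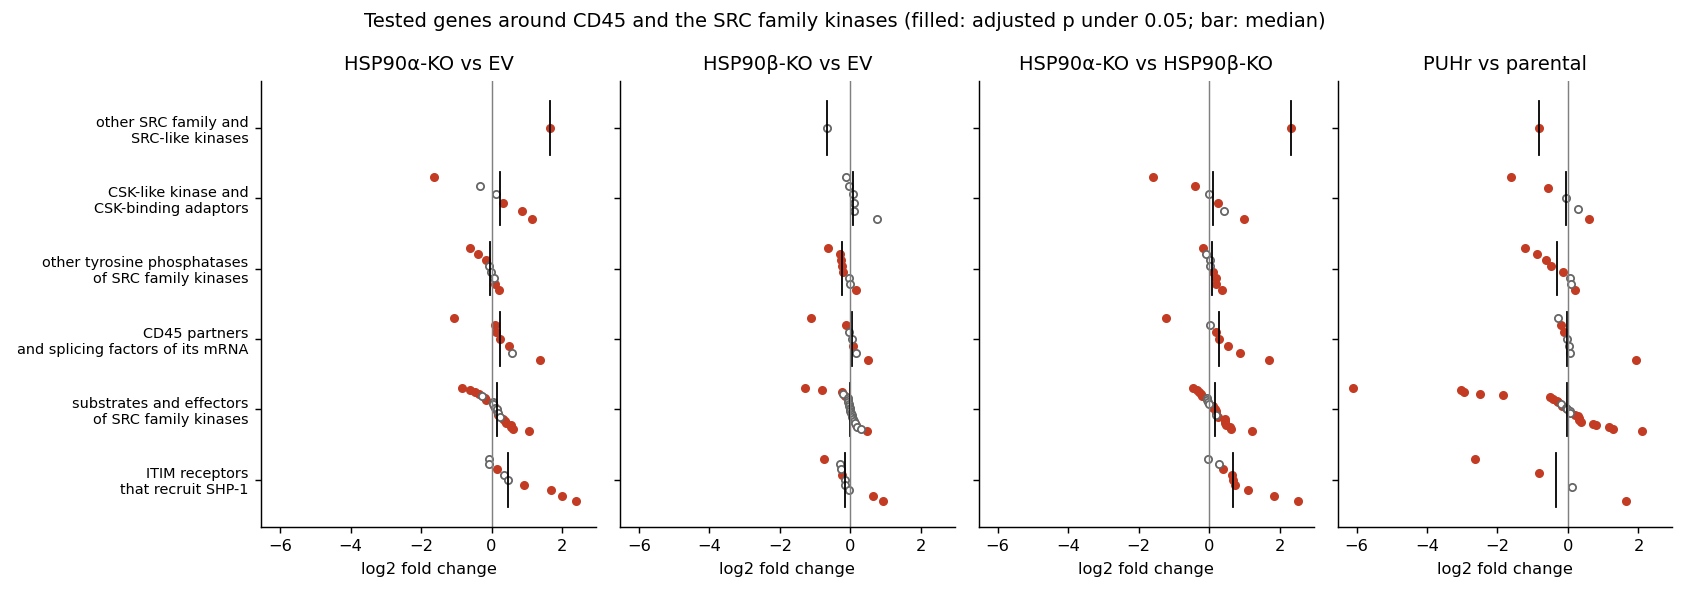
Log2 fold change of each tested gene of 6 lists around CD45 and the SRC family kinases in 4 comparisons (filled where the adjusted p is under 0.05), with the median of each list as a black bar. List medians lie within 0.5 of 0 in PUHr except for the single tested kinase FRK, and the point furthest to the left is SYK at -6.11.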

How the data were processed

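The 15 RNA-seq libraries came as 2 deposited tables. Stranded mRNA libraries were aligned by the authors with STAR (GRCh38), followed by featureCounts for counting and edgeR for normalization. Each deposited value is a log2 CPM with a prior count of 2. Whole reads were recovered from the linear values within 0.1 read and used for depth, not for the main test. Parental columns spell the solvent DSMO, read as DMSO. Rows without an identifier (30 and 114, holding 0.0270% to 0.0363% of reads) were left out.

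Genes that reached a log2 CPM of -1 in 3 or more libraries entered the test, made with limma 3.58.1 (R 4.3.3; intensity trend, 1 fit per table), with Benjamini-Hochberg adjustment over all tested genes. CPM means and ± SD are over 3 replicates. Steps were tested on simulated data. The genes and lists were chosen with earlier results of these data known. Named were the 9 genes, at most 6 changed genes per list, the 5 genes most like PTPRC, and neighbours. Loci come from GENCODE v44, promoters from RefSeq. The strand and multi-mapping settings of the counting are not given in the sources used here. Alternatives covered filters, pseudocounts of 0.1, 1 and 5 CPM, scaling, variance model, a replicate block, thresholds, voom and leaving out each library.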

Additional observations from a re-analysis of the deposited data

How the results depend on the processing

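Without a fold threshold, the genes passing were 6 in HSP90α-KO against EV, 1 in HSP90β-KO against EV, 6 in HSP90α-KO against HSP90β-KO and 7 in PUHr. In PUHr the count of changed genes was 1 when only genes whose mean log2 CPM reached 1 were kept, which removes SRC and PTPN6, and 1 with a pseudocount of 5 CPM, which shrinks both. SRC also lost its call as changed with 5 CPM in HSP90α-KO against EV (2 genes changed) and with 1 or 5 CPM against HSP90β-KO (2 genes). The counts were otherwise within 1.5 times those reported. PTPRC in HSP90α-KO against EV ranged from -2.47 to -2.34 over 12 alternatives and from -2.43 to -2.35 with 1 library left out. No direction of a called gene reversed. Of the single genes, 13 results passed the threshold only under an alternative, all of them PTPRC, SRC or CSK in HSP90β-KO or CSK in HSP90α-KO. Replicate numbers do not pair the libraries: deviations of same-numbered libraries correlated at -0.048 to 0.031 in the knockout table and 0.0068 to 0.045 in the resistance table. With the replicate block the number of changed genes was 3, 0, 3 and 3, and PTPRC in HSP90α-KO was -2.40 (adjusted p = 3.71e-22 in limma). The length of merged exons, chosen after seeing the data, changed ranks, shares and ratios as given above. Depth limits SRC and PTPN6, at 18 to 22 and 16 to 28 reads in PUHr.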
